A study of Homo sapiens with 2 samples.

Results

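Major histocompatibility complex (MHC) class I molecules show peptides from inside the cell to CD8+ T cells and natural killer cells. Proteins are cut by the proteasome, in which the interferon-inducible subunits PSMB8 and PSMB9 can replace constitutive ones, the peptides are carried into the endoplasmic reticulum by the TAP1/TAP2 transporter, and they are bound there by a heavy chain (HLA-B, HLA-C, HLA-E or HLA-F) paired with beta-2-microglobulin (B2M). Many tumours express more or less of this machinery than the tissue they came from, and interferon is the best known signal that raises it. The 9 genes described here are these 4 heavy chains, B2M, TAP1, TAP2, PSMB8 and PSMB9, and all probes that the array files name for them were taken, which are 14 of 41000 probes and 9 of 30238 gene names.

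The samples were RNA of human A2780 ovarian carcinoma cells, hybridized in 2 colours to Agilent whole human genome arrays. A2780CBN was selected in rising doses of carboplatin up to 22.2 µM, and A2780CBNDXL in carboplatin together with docetaxel, at 8.02 µM of the combination by its label. In the text of the study 8.02 µM is the carboplatin part of an IC50 of the line, with docetaxel at 8.02 nM. The terminal dose of each drug is lower there. Each was compared with A2780CC, the parental A2780 cells cultured alongside without drug, which carry 1 name in the labels for both lines, so that they are called here the control of A2780CBN and the control of A2780CBNDXL. RNA of 3 isolations was pooled to 1 sample per line, which was hybridized 4 times, once forward and once with the dyes exchanged on both of 2 slides. The SD over arrays therefore covers labelling and hybridization error and not the spread between cultures, no p-value is given for any difference, and the label of each line stands for 1 selected population. With the reverse arrays turned over, their ratios correlated with those of the forward arrays over all probes at 0.58 to 0.61 in A2780CBN and 0.73 to 0.74 in A2780CBNDXL. Arrays of the same labelling correlated more closely, at 0.85 to 0.87 and 0.87 to 0.90, so the ratios varied with the labelling direction. All directions given here are those of the forward labels. As a check of these labels by 1 kind of comparison, between arrays, the control channels differed at 794 of 18179 genes and the channels of the lines at 2816 of 18390. Between 59.8 and 67.5% of spots per channel were well above background. Of 7 epithelial markers, CDH1 and KRT7 were not well above background in any of the 4 RNAs, while EPCAM, KRT8 and KRT18 gave mean signals between 151 and 2562. MUC1 gave mean signals between 363 and 730, and KRT19 stayed dim at 25.3 to 42.7. EPCAM was higher than the control in both lines (log2 ratios of 2.07 and 1.67) and KRT18 in A2780CBN (1.05). Of 6 ovarian carcinoma markers, WT1, MUC16 and MSLN were not well above background in any RNA. PAX8, FOLR1 and ESR1 were well above background in all of them, and none differed 2-fold from the control in either line. The summed signal of this list was 318 to 461 in A2780CBN and 439 to 595 in its control. It was 1187 to 2024 in A2780CBNDXL and 1000 to 1812 in its control. FOLR1 gave mean signals of 246 in A2780CBN, 359 in its control, 1291 in A2780CBNDXL and 1079 in its control. Among 5 stromal markers, COL1A2 was lower in both lines (-5.67 and -2.81), PDGFRB and VIM were higher in A2780CBN (2.36 and 1.08) and COL1A1 in A2780CBNDXL (2.04). PDGFRB was at -2.53 in A2780CBNDXL but was not tested there, being well above background on 2 arrays of the line and 3 of its control. The summed signal of the 5 was 240073 to 326656 in A2780CBN, 80639 to 175696 in its control, 206299 to 315648 in A2780CBNDXL and 181516 to 256917 in its control. Most of each sum was VIM, with mean signals between 127329 and 256624. Of 9 leukocyte markers, PTPRC and CD3D were not well above background in any RNA, and the summed signal of the list was 509 to 587 in A2780CBN, 407 to 533 in its control, 641 to 893 in A2780CBNDXL and 502 to 535 in its control. The part of these markers in the results was not tested.

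The probes may differ in how well they can tell the class I genes apart, because the heavy chains are alike in sequence. The following 60-base probes carry the results and are shown as the array files give them, with no capitals except in the HLA-B and HLA-F pair. Positions are on NCBI36, and no annotation of that build was used here, so exons are not given.
HLA-B, A_23_P125107, minus strand, chr6:31431079-31431138: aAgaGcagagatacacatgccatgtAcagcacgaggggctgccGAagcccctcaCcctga
HLA-F, A_23_P145264, plus strand, chr6:29800992-29801051: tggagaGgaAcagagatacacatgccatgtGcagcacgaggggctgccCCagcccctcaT
HLA-B, A_24_P113674, minus strand, chr6:31430895-31430954: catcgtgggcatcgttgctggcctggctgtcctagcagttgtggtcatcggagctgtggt
HLA-E, A_24_P326082, plus strand, chr6:30567339-30567398: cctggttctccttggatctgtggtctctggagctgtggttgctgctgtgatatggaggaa
B2M, A_23_P37441, plus strand, chr15:42795065-42795124: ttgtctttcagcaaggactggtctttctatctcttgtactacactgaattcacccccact
PSMB8, A_23_P250629, minus strand, chr6:32918001-32918468: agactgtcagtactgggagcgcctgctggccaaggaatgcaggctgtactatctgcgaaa
PSMB9, A_23_P111000, plus strand, chr6:32931896-32931955: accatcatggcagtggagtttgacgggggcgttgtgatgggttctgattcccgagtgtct

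Capitals mark the bases at which the first HLA-B probe and the HLA-F probe differ where they overlap. The pair overlapped over 55 bases and matched at 49 of them, with an unbroken shared run of 20 bases. Counted from the 5′ end of the HLA-B probe, with its base first, the 6 differences were A2G, G5A, A26G, G44C, A45C and C55T. Among the other class I probes, the HLA-E probe A_23_P30848 shared a run of 21 bases with a probe of the pseudogene HLA-H, and the second HLA-B probe shared at most 11 bases with any of them. The HLA-E probe in the list, A_24_P326082, had a longest shared run of 11 bases as well. Probes were compared with each other only and not with the transcripts of other class I genes. A short shared run therefore does not show that a probe is specific. Signals of any of these class I probes may hold some signal of a relative, and this was not tested. The listed span of the PSMB8 probe, 468 bases, is longer than the probe. TAP1, TAP2, PSMB8 and PSMB9 lay together on chromosome 6 between positions 32897782 and 32931955, while B2M is on chromosome 15.

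In A2780CBN the class I machinery was higher than in its control. Of the 8 genes that could be tested, 7 were at least 2-fold higher with the same sign on all 4 arrays and well above background in a channel on each. Of all 17949 genes tested, 12.6% passed this rule, made up of 8.01% that were higher and 4.57% that were lower. None of the 8 was lower. With both channels required to be above background the count was 6, without PSMB8, which passed only through the line where it was high. The transporter subunit TAP1 led with 13.8-fold and PSMB9 followed with 11.5-fold. The median log2 ratio of the 9 genes was 2.96, against -0.06 for all genes tested. TAP2, the partner of TAP1, was the exception. HLA-B was not tested because its brighter probe was marked as an outlier spot on 1 array of each line. By the brightest probe measured on all 8 arrays, 8 of the 9 genes were higher.

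Among the heavy chains, the first HLA-B probe gave 49001, 41982, 56113 and 54344 in A2780CBN on the 4 arrays (slide 1 forward and reverse, then slide 2 forward and reverse). The control gave 3045, 4350, 3527 and 5666, a log2 ratio of 3.63 ± 0.42 (SD, 4 arrays) or 12.4-fold. All control signals lay far below all signals of the line, and the forward arrays gave larger ratios (4.01 and 3.99) than the reverse ones (3.27 and 3.26). The second HLA-B probe gave 92964, 89834 and 90970 in the line and 12904, 8210 and 14048 in the control on the 3 arrays that measured it. Its log2 ratio was 3.11 ± 0.40, or 8.65-fold.

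HLA-C, a classical heavy chain that also binds killer cell receptors, gave signals of 96090, 103491, 103661 and 107545 in A2780CBN. In the control they were 14359, 21071, 18060 and 24558, so that the log2 ratio was 2.42 ± 0.27, or 5.36-fold. HLA-E, whose protein presents leader peptides of other heavy chains to natural killer cells, was measured by 3 probes with log2 ratios of 2.72 ± 0.31, 2.78 ± 0.26 and 2.26 ± 0.37. The brightest of them gave 34079, 30888, 36607 and 31343 in the line against 5703, 7946, 6108 and 8329 in the control, a 4.78-fold difference without overlap. HLA-F, a heavy chain of restricted expression, gave 9861, 10111, 11791 and 11588 in the line and 926, 1151, 975 and 1237 in the control. Its log2 ratio of 3.34 ± 0.20, or 10.1-fold, lay close to that of the HLA-B probe whose sequence it nearly shares.

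B2M, the light chain of every class I molecule, was measured by a probe with 10 spots on each array. The means of those spots were 58179, 65292, 47552 and 58884 in A2780CBN and 11128, 10112, 9060 and 9159 in the control, a log2 ratio of 2.54 ± 0.17 or 5.81-fold. A second B2M probe, A_24_P740662 at chr15:42794602-42794661, stayed near the background, with means of 36.9 in the line and 22.7 in the control and well above background in the control on 2 of 4 arrays. That probe is listed under another transcript record than the first, and its log2 ratio of 0.79 ± 0.50 did not reach the limit.

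For the transporter, TAP1 gave 50275, 54084, 43659 and 41308 in A2780CBN against 3220, 4366, 2748 and 3491 in the control. This was a log2 ratio of 3.79 ± 0.22, the largest among the 9 genes and the 81st from the top among all genes tested. TAP2 gave 290, 257, 230 and 199 in the line and 168, 193, 138 and 155 in the control, a log2 ratio of 0.58 ± 0.22 that was above 0 on all 4 arrays and under the 2-fold limit. The subunits of 1 transporter thus stood at 13.8-fold and 1.49-fold. A second TAP2 probe was not well above background in either line or either control on any array.

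The immunoproteasome subunit PSMB9 gave 18698, 17353, 15460 and 15956 in A2780CBN and 1546, 1600, 1375 and 1325 in the control. Its log2 ratio was 3.53 with an SD of only 0.08. PSMB8 gave much dimmer signals, 122, 155, 161 and 194 in the line and 22.1, 17.6, 11.3 and 36.6 in the control. The log2 ratio was 2.96 ± 0.67, or 7.79-fold, but the control was well above background on 1 of 4 arrays only. With normexp background correction and an offset of 50, this log2 ratio was 0.54 and PSMB8 no longer passed.

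In A2780CBNDXL the same machinery was mostly lower than in its control. Of 8 genes tested, 5 were at least 2-fold lower (HLA-C, HLA-F, TAP1, TAP2 and PSMB9), and 1, PSMB8, was higher. Of all 17120 genes tested, 17.0% passed, with 9.23% lower and 7.72% higher. TAP1 was 5.91-fold and PSMB9 3.89-fold lower. HLA-E and B2M stayed inside the 2-fold limit but were lower on all 4 arrays. The median log2 ratio of the 9 genes was -1.23, against 0.04 for all genes tested.

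**Figure D1:**
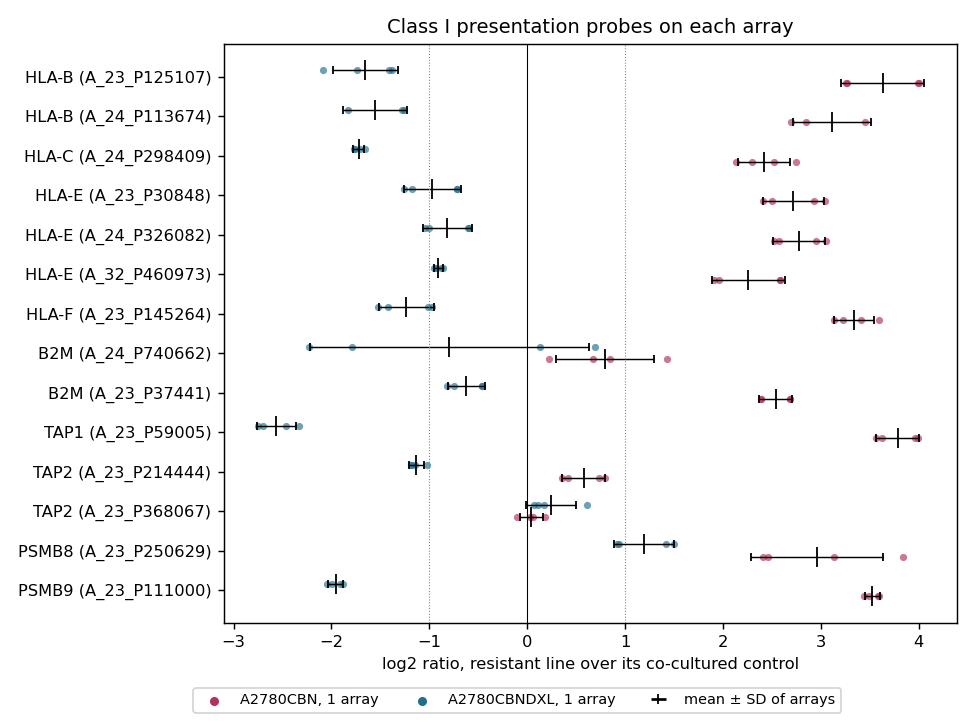
The log2 ratio of resistant line over co-cultured control on each array for the 14 probes of the 9 genes, named with their probe. Points are single arrays, black marks the mean and SD of the arrays, and dotted lines the 2-fold limits. Most probes lie to the right for A2780CBN and to the left for A2780CBNDXL, PSMB8 lies to the right for both, and the second probes of B2M and TAP2 are close to the background.

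The first HLA-B probe gave 4012, 4097, 4551 and 4271 in A2780CBNDXL and 17085, 10880, 15144 and 11117 in its control. The log2 ratio was -1.65 ± 0.33, or 3.15-fold lower, and the second HLA-B probe, measured on 3 arrays, had -1.55 ± 0.33. HLA-C gave 5641, 11689, 12545 and 12633 in the line against 18384, 39608, 42742 and 39809 in the control. On array 1 both channels of HLA-C were at about the same fraction of their level on the other arrays, and the log2 ratio was steady at -1.72 ± 0.05, with -1.74 when that array was left out.

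HLA-E was at -0.97 ± 0.29, -0.81 ± 0.25 and -0.91 ± 0.04 by its 3 probes, just inside the limit. The brightest probe gave 5688, 6651, 6392 and 5950 in the line and 10498, 12081, 12404 and 11338 in the control. The groups did not overlap, at a 1.88-fold lower signal in the line. HLA-F, with 1084, 1228, 1092 and 1275 against 2915, 2408, 3136 and 2573, had a log2 ratio of -1.23 ± 0.28. B2M gave 15448, 19675, 17288 and 15639 in the line and 21329, 34684, 23732 and 26223 in the control, a log2 ratio of -0.62 ± 0.19. The light chain was thus 1.54-fold lower and the heavy chains between 1.76-fold and 3.30-fold lower by their single probes.

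TAP1 gave 2231, 2296, 2175 and 1744 in A2780CBNDXL and 12354, 15420, 10965 and 11320 in its control, a log2 ratio of -2.56 ± 0.19. TAP2 gave 93.8, 77.1, 96.1 and 65.3 in the line against 213, 175, 195 and 145 in the control, a log2 ratio of -1.13 ± 0.08. Both subunits were lower here, but TAP2 was at -0.41 with normexp and at -0.45 as the mean of its probes. PSMB9 gave 1364, 1503, 1383 and 1345 against 5621, 6006, 5093 and 5059, a log2 ratio of -1.96 ± 0.08. PSMB8 went the other way, with 114, 159, 152 and 192 in the line and 60.3, 55.9, 79.6 and 72.0 in the control, a log2 ratio of 1.19 ± 0.31. Its 4 control signals all lay below the 4 signals of the line, and with normexp the log2 ratio was 0.33 and did not pass.

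Setting both lines side by side, 4 of the 8 genes tested in both (HLA-C, HLA-F, TAP1 and PSMB9) passed the rule in opposite directions, upwards in A2780CBN and downwards in A2780CBNDXL. Over all 16132 genes tested in both lines, 228 (1.41%) had this pattern. The next comparison used no control at all. The channels of the lines, scaled between arrays by the Aquantile method and matched for slide and labelling, were compared in 4 pairs of arrays. In A2780CBNDXL, 7 of 8 genes tested were at least 2-fold lower than in A2780CBN on all 4 pairs and none was higher. Of all 18390 genes tested, 15.3% differed by this rule, 9.13% lower and 6.18% higher. The exception was PSMB8, with a log2 difference of -0.07 ± 0.11 (SD, 4 pairs).

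TAP1 showed the largest difference between the lines, -4.64 ± 0.35 on the log2 scale or 24.9-fold, followed by PSMB9 at -3.74 ± 0.19 and the first HLA-B probe at -3.68 ± 0.21. HLA-C was at -3.48 ± 0.51, HLA-F at -3.34 ± 0.22 and HLA-E at -2.55 ± 0.14 by its brightest probe. B2M, at -1.88 ± 0.39, and TAP2, at -1.60 ± 0.27, differed least among those that passed. The second HLA-B probe could be compared on 2 pairs only, at -3.59 and -3.35.

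The controls, which share 1 name, were not alike in these genes. In the control of A2780CBNDXL, 5 of 8 genes tested (HLA-F, B2M, TAP1, PSMB8 and PSMB9) exceeded the control of A2780CBN by 2-fold or more on all 4 pairs and none was lower. Of all 18179 genes tested, 4.37% differed by this rule, 3.11% higher and 1.26% lower. The largest of these log2 differences was 1.75 ± 0.22 for PSMB9, followed by 1.71 ± 0.37 for TAP1 and 1.69 ± 0.80 for PSMB8, whose lower control was well above background on 1 of 4 arrays. B2M differed by 1.28 ± 0.16 and HLA-F by 1.23 ± 0.57. The median over the 8 genes measured on all pairs was 1.26, against 0.0032 over all genes tested. Forward pairs differed more than reverse pairs for several of them, as for the first HLA-B probe with 2.63 and 2.18 on forward and 0.88 and 0.74 on reverse pairs, and HLA-C and HLA-E did not pass. What set the controls apart was not tested.

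The size of each ratio therefore depended on the control it was taken against, and for A2780CBNDXL the call did too. Set against the control of A2780CBNDXL in place of its own, A2780CBN still had all 7 genes higher, with TAP1 at 4.22-fold, HLA-F at 4.31-fold, PSMB9 at 3.43-fold and B2M at 2.39-fold. Set against the control of A2780CBN, A2780CBNDXL had only HLA-C and TAP2 at least 2-fold lower, at log2 ratios of -1.06 ± 0.49 and -1.02 ± 0.48. HLA-F was then at 0.0017 ± 0.31, PSMB9 at -0.21 ± 0.22, TAP1 at -0.85 ± 0.56, and B2M was above the control at 0.66 ± 0.25. PSMB8 was at 2.89 ± 0.63 against this control, in which it was well above background on 1 of 4 arrays. This last set of values rests on the same 4 RNAs as the others and is no independent measurement.

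**Figure D2:**
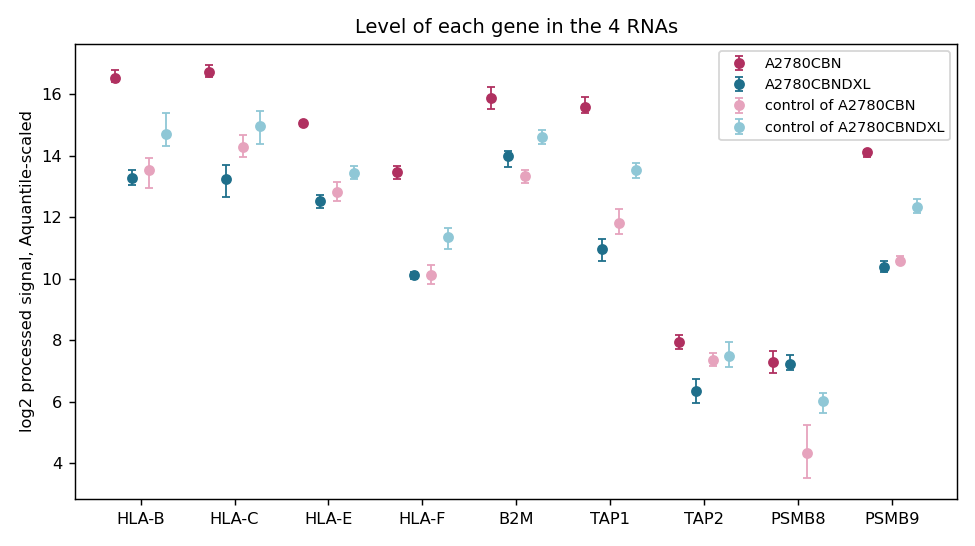
Aquantile-scaled log2 processed signal of each gene's brightest probe in the 4 RNAs. Points are means over 4 arrays (3 for HLA-B) and bars run from the lowest to the highest array. Signals are compared within a gene and not between genes. A2780CBN has the highest mean for each gene, and its range overlaps with A2780CBNDXL in PSMB8 and with the control of A2780CBNDXL in TAP2.

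Over the 4 RNAs the order was alike for most genes. A2780CBN had the highest level of all 9 genes and its range over arrays did not overlap the next RNA in 7 of them, the exceptions being TAP2 and PSMB8. Of 18937 genes tested in either line, 22.3% were highest in A2780CBN and 7.45% were so without overlap. The control of A2780CBNDXL came next in 8 of the 9 genes, and the levels of A2780CBNDXL and the control of A2780CBN were neighbours at the lower end in all of these. Their ranges overlapped for HLA-B, HLA-E, HLA-F and PSMB9, whose mean levels differed by 0.27, 0.30, 0.0017 and 0.21 on the log2 scale. A2780CBNDXL was the lower of that pair without overlap for HLA-C (1.06), TAP1 (0.85) and TAP2 (1.02), and the higher for B2M (0.66). PSMB8 had an order of its own, with the lines together on top (7.31 and 7.23), the control of A2780CBNDXL at 6.04 and the control of A2780CBN at 4.34.

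The genes around the 9 were taken from lists of the wider pathway, in which 91 of 96 listed genes had a probe. In A2780CBN 26 of 78 tested list genes were higher and 1 lower, at a median log2 ratio of 0.27, where 8.01 and 4.57% of all genes tested were higher and lower. With both channels required to be above background, these counts were 25 and 0. In A2780CBNDXL 5 of 70 were higher and 10 lower, at a median of -0.16, where 7.72 and 9.23% of all genes tested were higher and lower. The counts with both channels above background were 4 and 9 there. The lists below do not include the 9 genes themselves.

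Of the other class I and class I-like genes, 8 of 10 tested were higher in A2780CBN, against 8.01% of all genes tested. Of 9 tested in A2780CBNDXL, 1 was higher and 3 lower, against 7.72 and 9.23% of all genes tested. In A2780CBN, HLA-H, HLA-J and HLA-L had log2 ratios of 3.31 ± 0.31, 3.33 ± 0.56 and 3.30 ± 0.43, in the range of HLA-B and HLA-F. HLA-G, a heavy chain known from the placenta, was at 2.74 ± 0.41, and on the 3 arrays of A2780CBNDXL that measured it at -1.48 ± 0.08. PROCR, a class I-like receptor of protein C, was at 1.35 ± 0.18 in A2780CBN and 0.25 ± 0.19 in A2780CBNDXL. HLA-H, HLA-J and HLA-L, which are listed as pseudogenes, were lower in A2780CBNDXL at -1.29 ± 0.45, -1.52 ± 0.04 and -1.37 ± 0.17. These genes and the heavy chains have near-identical stretches, so part of their signal may be shared. MR1, which presents vitamin metabolites and is encoded outside the MHC, was higher in both lines, at 2.30 ± 0.19 and 1.28 ± 0.27. The stress ligands MICA and MICB, which are bound by an activating receptor of natural killer cells, were at 1.08 ± 0.32 and 1.34 ± 0.24 in A2780CBN, and at 0.05 ± 0.10 and -0.22 ± 0.02 in A2780CBNDXL.

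For peptide loading, TAPBP (tapasin, which holds empty class I molecules at the transporter) was higher in A2780CBN at 1.17 ± 0.68, and TAPBPL, a relative that edits peptides, was higher in both lines at 2.40 ± 0.43 and 1.51 ± 0.24. The general chaperones CALR, CANX and PDIA3 stayed between -0.41 and 0.32 in both lines. Among the trimming peptidases, ERAP2 was at 2.93 ± 0.05 and ERAP1 at 1.77 ± 0.20 in A2780CBN, and none of the 4 tested passed in A2780CBNDXL. In that line 17.0% of all genes tested passed, so a count of 0 among 4 is near that share.

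Of the proteasome genes, the inducible subunit PSMB10 was higher in A2780CBN at 1.02 ± 0.27, as were the activator subunits PSME1 at 2.02 ± 0.21 and PSME2 at 1.14 ± 0.26. None of the 14 constitutive core genes tested passed in A2780CBN, where they ranged from -0.27 to 0.31. In A2780CBNDXL none of 5 tested genes of the inducible and activator list and none of 10 tested core genes passed. PSME1 was at 0.09 ± 0.06 there and PSME2 at -0.43 ± 0.12. The share of all genes tested that passed was 12.6% in A2780CBN and 17.0% in A2780CBNDXL. Counts of 0 in lists this short are near these shares.

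Among 27 tested regulators, 6 were higher in A2780CBN and none lower, and in A2780CBNDXL none was higher and 6 lower. Of all genes tested, 8.01% were higher and 4.57% lower in A2780CBN, and 7.72% higher and 9.23% lower in A2780CBNDXL. IRF1, an interferon-induced transcription factor, was in both sets, at 2.86 ± 0.08 in A2780CBN and -1.81 ± 0.36 in A2780CBNDXL. IRF9, STAT2, STAT3, JAK1 and NFKB2 were higher in A2780CBN, at 1.71 ± 0.74, 1.67 ± 0.31, 1.61 ± 0.22, 1.11 ± 0.29 and 1.05 ± 0.82. NLRC5, a transactivator of class I genes, was at 0.99 ± 0.20 in A2780CBN, just under the limit, and at -1.97 ± 0.75 in A2780CBNDXL, where it was well above background on 3 of 4 arrays of the line.

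In A2780CBNDXL the largest fall among the regulators was that of SOCS3, an inhibitor of cytokine signalling, at -4.35 ± 0.20 or 20.4-fold lower, while it was at -0.32 ± 0.30 in A2780CBN. The interferon gamma receptor chain IFNGR1 was at -1.31 ± 0.70, RELB of the NF-kappaB family at -1.42 ± 0.15 and RFXAP, a subunit of the factor that binds the X box, at -1.14 ± 0.40. Between the lines, without controls, 9 of the 27 regulators were lower in A2780CBNDXL, against 9.13% of all genes tested. IRF1 was at -3.83 ± 0.34, SOCS3 at -3.76 ± 0.17 and NLRC5 at -2.43 ± 0.56. Between the controls 0 of the 27 passed the rule, against 4.37% of all genes tested, and a count of 0 among 27 is near that share. IRF1 was at 0.84 ± 0.74 between the controls.

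**Figure D3:**
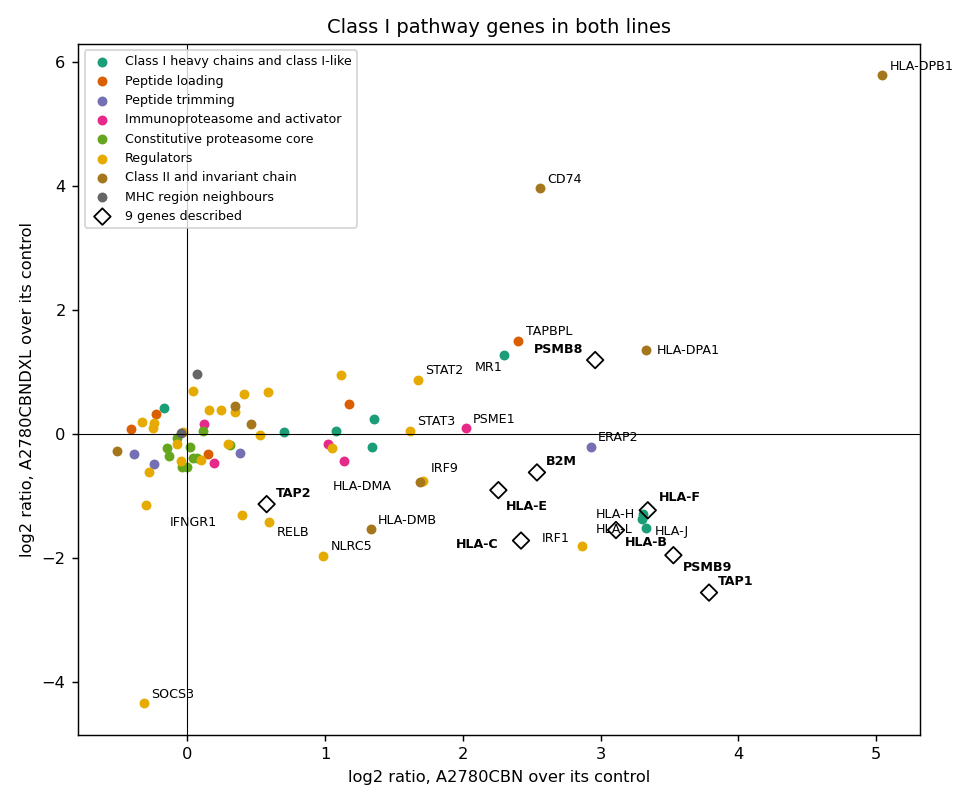
Mean log2 ratio of A2780CBN over its control (horizontal) against A2780CBNDXL over its control (vertical) for the list genes tested in both lines, coloured by list, with the 9 genes as open diamonds. Names are given for changed genes with large ratios. Most named class I genes and IRF1 are at the lower right, the core proteasome is at the centre, and HLA-DPB1 and CD74 are at the top.

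The class II genes and their invariant chain serve peptides from outside the cell. Of 9 tested in A2780CBN, 5 were higher and 1 lower, where 8.01 and 4.57% of all genes tested were higher and lower. Of 8 in A2780CBNDXL 3 were higher and 1 lower, where these shares were 7.72 and 9.23%. A count of 1 lower among so few genes is near its share in either line. Among the class II genes that passed, CD74 in both lines and HLA-DQA1 in A2780CBN passed only through the channel where they were high. The lower bounds of both in A2780CBN, given below, are under 2-fold. HLA-DPB1 was higher in both lines, at log2 ratios of 5.04 ± 0.18 and 5.79 ± 0.39, as was HLA-DPA1 at 3.33 ± 0.09 and 1.35 ± 0.14. CD74, the invariant chain, was not well above background in either control, so that it was at least 1.98-fold higher in A2780CBN and at least 8.42-fold higher in A2780CBNDXL. HLA-DMB, which edits class II peptides, was higher in A2780CBN at 1.33 ± 0.67 and lower in A2780CBNDXL at -1.54 ± 0.15, and its partner HLA-DMA was at 1.69 ± 0.33 and -0.78 ± 0.08. HLA-DQA1, not well above background in A2780CBN, was lower there by at least 1.76-fold. BRD2 and RXRB, neighbours of the TAP and PSMB genes in the MHC region, did not pass in either line.

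Outside these lists, the 5 genes whose log2 ratios on the 8 arrays lay closest to the median profile of the 9 were found among 16124 candidates. BATF2, an interferon-induced transcription factor, was the closest at a Euclidean distance of 0.60, with log2 ratios of 2.81 ± 0.13 in A2780CBN and -1.24 ± 0.15 in A2780CBNDXL. TRIM69, a ubiquitin ligase, followed at a distance of 0.62 with 2.82 ± 0.31 and -1.33 ± 0.05. ABCC8, a subunit of a potassium channel, came next at 0.77 with 2.91 ± 0.16 and -1.45 ± 0.32. The other two were the probes A_32_P143980, at 0.83, and A_24_P912382, at 0.86, whose files give no gene symbol. These were chosen for their likeness, which gives them no weight as evidence.

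The promoters of these genes are shown because most of them were changed in 1 direction within a line. RefSeq windows of GRCh38.p14 matched 8 of the genes by symbol, all but HLA-E, with 10 windows in all, and the 250 bases before each start were searched on both strands for 5 letter patterns. These were GAAA repeated after a gap of 2 bases for the interferon-stimulated response element (ISRE), TTCNNNGAA for the STAT site GAS, TGACG for the X2 box, ATTGG for the Y box and the NF-kappaB site of enhancer A, whose letters are the first run of capitals in the HLA-B window. Of 35116 promoters of the same length, 3.02, 6.57, 21.2, 32.0 and 0.0683% held them, in that order. Capitals mark any of these matches in the following windows, each written 5′ to 3′ towards its gene.
TAP1, minus strand, chr6:32853705-32853954: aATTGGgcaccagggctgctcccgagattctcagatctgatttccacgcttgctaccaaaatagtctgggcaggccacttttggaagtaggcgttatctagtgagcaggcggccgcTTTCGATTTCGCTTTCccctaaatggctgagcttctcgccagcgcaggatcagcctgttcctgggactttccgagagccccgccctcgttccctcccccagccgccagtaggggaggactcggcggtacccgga
PSMB9, plus strand, chr6:32853942-32854191: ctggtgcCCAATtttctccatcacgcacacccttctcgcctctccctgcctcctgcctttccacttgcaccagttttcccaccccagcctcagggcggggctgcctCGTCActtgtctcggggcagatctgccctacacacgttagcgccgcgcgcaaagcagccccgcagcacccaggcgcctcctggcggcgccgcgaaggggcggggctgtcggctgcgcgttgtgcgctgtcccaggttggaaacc
B2M, plus strand, chr15:44711267-44711516: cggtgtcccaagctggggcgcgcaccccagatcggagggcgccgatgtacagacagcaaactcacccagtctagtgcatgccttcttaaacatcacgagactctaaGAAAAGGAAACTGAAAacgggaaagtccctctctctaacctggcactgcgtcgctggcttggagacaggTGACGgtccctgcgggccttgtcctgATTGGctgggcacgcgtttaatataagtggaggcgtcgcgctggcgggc
HLA-B, minus strand, chr6:31357180-31357429: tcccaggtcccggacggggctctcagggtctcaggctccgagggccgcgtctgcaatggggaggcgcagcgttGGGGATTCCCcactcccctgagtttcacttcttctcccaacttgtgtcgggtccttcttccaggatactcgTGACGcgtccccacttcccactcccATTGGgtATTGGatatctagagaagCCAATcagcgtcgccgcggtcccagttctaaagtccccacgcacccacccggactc
PSMB8, minus strand, chr6:32844680-32844929: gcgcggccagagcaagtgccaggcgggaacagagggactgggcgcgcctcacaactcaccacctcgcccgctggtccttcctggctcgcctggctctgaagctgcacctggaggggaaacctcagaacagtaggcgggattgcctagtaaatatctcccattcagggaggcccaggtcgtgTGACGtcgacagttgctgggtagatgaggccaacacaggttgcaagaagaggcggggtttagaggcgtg

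TAP1 and PSMB9 are transcribed away from each other and these windows share their outermost bases. TAP1 held 2 overlapping ISRE matches, from 134 to 119 bases before its start, and B2M held 2, from 144 to 129 bases before its start. HLA-F and TAP2 held 1 each in windows not printed. The windows of HLA-B, HLA-C, PSMB8 and PSMB9 held none, and 1 further window each of TAP1 and PSMB8, at another start, held a GAS match in place of it. Elements with other letters or beyond the 250 bases were not searched, so these genes cannot be said to lack an ISRE. The ISRE matches of TAP1 lie between the starts of TAP1 and PSMB9, outside the PSMB9 window. The TGACG letters were in a window of HLA-B, HLA-C, B2M, TAP2, PSMB8 and PSMB9, and the enhancer A letters in that of HLA-B alone among the 10. A match is a run of letters and no measured site.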

How the data were processed

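Expression in A2780CBN and A2780CBNDXL was measured against co-cultured controls on 4 two-colour arrays per line. The authors deposited Agilent Feature Extraction output (slide 1 was read with version 10.7.1.1, the other slide with 10.7.3.1). In it the processed intensity of each channel is background-subtracted and dye-normalized, with surrogate values for signals near background. Partek is also named in the submitters' processing notes. Deposited raw mean, background and background-subtracted intensities served alternatives only, and the deposited software flags (other) marked outliers and signal above background.

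Control spots and 165 to 1006 outlier spots per array were left out and none was saturated. Spots of a probe were averaged as log2 values. The dye entries of the reverse arrays repeat those of the forward ones, against their name and the methods, so these arrays were turned over as named. Log2 ratios were averaged within each labelling direction, then over both. A gene, represented by its brightest probe, was called at a mean log2 ratio of 1 or more in size, with 1 sign on all 4 arrays, and well above background in a channel on all 4. For a channel never well above background, a lower bound was computed as the bright mean against the lowest signal that was. Between lines and between controls, channels scaled by Aquantile in limma were compared in matched pairs. The arrays repeat 1 sample, so no test across samples was run, and their number limits the precision. No p-value was reported. limma with a dye term, also with slide as a block, was run as an alternative, and its p-values measure array error only. Other alternatives were normexp (offset 50) with loess, background-subtracted signals centred on the median, fold limits of 1.5 and 3, other filters on dim probes, the mean over probes, arrays or slides left out, the other line's control and 75th percentile scaling. The brightest probe measured on all 8 arrays was added after seeing the data. The steps were tested on simulated arrays. A2780DXL was not analysed here, and 2 genes of the lists are not reported here and were left out of them.

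The 9 genes and the lists were chosen with earlier results of these data known. Named were all 9 genes with their probes, list genes that passed in either line or belong to a described list, and the 5 nearest profiles. Tools were Python 3.11.15 with pandas 2.3.3, numpy 2.4.6 and matplotlib 3.10.9, and limma 3.58.1 in R 4.3.3.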

Additional observations from a re-analysis of the deposited data

Results flagged for a closer look

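Several genes had log2 ratios of 1 sign on all arrays measured in A2780CBN and of the opposite sign on all arrays in A2780CBNDXL, and the difference between the lines was not tested, since each line is 1 sample. Among the 9 genes these were HLA-B (3.11 in A2780CBN and -1.55 in A2780CBNDXL, 3 arrays each), HLA-C (2.42 and -1.72), HLA-E (2.26 and -0.91) and HLA-F (3.34 and -1.23). The others of the 9 were B2M (2.54 and -0.62), TAP1 (3.79 and -2.56), TAP2 (0.58 and -1.13) and PSMB9 (3.53 and -1.96). PSMB8 had the same sign in both.

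Among the other class I genes the pattern was seen for HLA-G (2.74 and -1.48, the latter on 3 arrays), HLA-H (3.31 and -1.29), HLA-J (3.33 and -1.52), HLA-L (3.30 and -1.37) and MICB (1.34 and -0.22). Of the proteasome genes it was seen for PSMB10 (1.02 and -0.16) and PSME2 (1.14 and -0.43). Of the regulators it was seen for NLRC5 (0.99 and -1.97), IRF1 (2.86 and -1.81), IRF9 (1.71 and -0.76), IFNGR1 (0.39 and -1.31) and RELB (0.60 and -1.42). HLA-DMA (1.69 and -0.78) and HLA-DMB (1.33 and -1.54) showed it among the class II genes. All of these values are ratios to the control of the same arrays, and the controls differed as described above. The pattern rests on signs without a size limit, so ratios as small as -0.16 for PSMB10 and -0.22 for MICB entered it. Its share among all genes was not counted, so it cannot be said whether the listed genes show it unusually often. Such a share is known for the stricter 2-fold rule only. There it was 1.41% of 16132 genes tested in both lines, against 4 of 8 tested among the 9 genes.

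One value stood far from the other arrays of its line. The second TAP2 probe, A_23_P368067, had a scaled log2 signal of 4.37 in the control on array 1 of A2780CBNDXL, against 2.44 to 2.56 on the other arrays. It was 1 of 78 sets of 4 values examined, where chance alone marks about 1 in 20 sets, and the probe was not well above background.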

How the results depend on the processing

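The 7 genes higher in A2780CBN numbered 6 to 8 under every alternative run, and none was lower under any. In A2780CBNDXL the 1 higher gene, PSMB8, was lost with normexp (0) and at 3-fold (0), and the 5 lower genes became 3 at 3-fold and 2 with the other line's control, where HLA-F reversed to 0.0017. Between the lines the count of 7 lower genes stayed within 1.5 times under all alternatives, and between the controls the 5 higher became 3 at 3-fold. Of list genes in A2780CBN, the 26 higher became 16 with normexp, 17 at 3-fold and 16 with the other control, and the 1 lower, HLA-DQA1, became 0 with normexp and 0 when both channels had to be above background. In A2780CBNDXL the 5 higher became 1 with normexp, 11 at 1.5-fold, 2 at 3-fold and 8 with the other control, and the 10 lower became 5 with normexp, 3 at 3-fold and 4 with the other control. The cause was not tested. Over all genes, normexp left 426 higher and 182 lower in A2780CBN, in place of 1438 and 821, and 489 and 688 in A2780CBNDXL, in place of 1321 and 1581. No paired analysis was possible because each line is 1 sample. The matched pairs and the slide block in limma pair arrays of these samples only, and with that block the counts of the 9 genes against their controls were the same. Signal over background, at a median of 2.28 to 3.52 per channel, limits PSMB8, TAP2 and the second B2M probe.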
